A study of Homo sapiens with 115 samples.

Results

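The cells compared here were HCT116 cells, an established line from a human colorectal cancer of the genotype labelled p53-/-. The comparison took 18 cells of the series and left 97 aside: 11 pre-budding cells, stage [P], labelled Day 7 after a dose of 8 Gy, and 7 cells of stage [N], labelled Day 0. The dose entry in the labels is also 8 Gy for [N], but by the study's methods these cells were unirradiated. Both groups carried the same genotype and, as the study's methods describe it, came from 1 clone made by homologous recombination, so nothing here separates the genotype from other features of that clone. Members were taken by the genotype and stage in the labels. [P] cells are the enlarged, radiation-tolerant persister (RTP) cells picked before they bud off progeny. Each cell was aspirated under a microscope, and its full-length mRNA was amplified and sequenced as 1 library (SMART-seq).

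Irradiated cells that stop dividing commonly switch off the genes of mitosis and DNA replication. CDKN1A, the CDK inhibitor p21, is one of the proteins that hold such cells back. Damaged nuclei can also leak DNA and RNA into the cytosol, where sensors such as RIG-I, MDA5 and STING lead to interferon beta and to the interferon-stimulated genes, a set of antiviral effectors that includes ISG15 and the OAS enzymes.

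The labels name no separate cultures, so the cells of a stage count as 1 sample. No p-value or standard error is therefore given, and every SD is over cells. A difference is the mean log2(CPM + 1) of the 11 [P] cells minus that of the 7 [N] cells, where CPM is the count scaled to a total of 1000000 per cell. A gene is called past the fold when this difference reached 1, which is 2-fold. Besides the difference, the number of [P] cells lying above the highest, or below the lowest, [N] cell is given for many genes, as cells carrying the change. CPM values are shares of a cell's RNA: a change in the total RNA of a cell cannot be told apart from the values.

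Total counts per cell ran between 9035862 and 67086907 in [P], against 15784490 and 47271774 in [N]. No 2 cells held identical values. The [P] cells 1206P1 and 1206P3 stood apart from the others. They had the fewest genes with a count, 11657 and 11184, against 13547 to 19258 in the other [P] cells and 14092 to 16675 in [N]. Their median correlation with the other cells, over the genes tested, was 0.666 and 0.683, and that of the other 16 cells lay between 0.778 and 0.918. The leading results and, for most lists, the counts that changed are therefore given with and without these 2 cells. Titles begin with 1115, 1118 or 1206 in [P] and with 0109 or 1115 in [N]. Only prefix 1115 held both stages (3 [P] and 2 [N] cells), and for the other prefixes stage and prefix cannot be told apart. The epithelial markers EPCAM, CDH1, KRT8, KRT18, KRT19 and CLDN7 had counts in all 18 cells. VIL1, another epithelial marker, had none in any cell, and the epithelial markers CDH17 and LGALS4 did not pass the filter on low values. Of the markers of other cell types, LUM, POSTN, CD3E, FCGR3A and CDH5 had no count in any cell, and PTPRC had one in 1 [P] cell only. COL1A1 and CD68 had counts in 10 [P] and 6 [N] cells each, and HBA1 and HBA2 in 7 [P] and 7 [N] cells each. FBLN1, a fibroblast marker, had counts in 10 [P] and 7 [N] cells. Its level by summed counts was 24.3 CPM in [P] and 19.2 CPM in [N].

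Of 13676 genes that passed the filter on low values, 1030 (7.53%) were higher past the fold in [P] and 1823 (13.3%) were lower. Without 1206P1 and 1206P3 the balance turned round: 1896 genes (13.9%) were higher and 766 (5.6%) lower. The counts of each list below are to be read beside these shares. Of the genes called with all cells, 909 of the 1030 higher and 721 of the 1823 lower genes were also called without these 2 cells. The median difference of all genes was -0.11 with all 11 [P] cells and 0.17 without the 2. Every [P] cell was above every [N] cell for 18 genes (0.132%), and every [P] cell was below every [N] cell for 65 genes (0.475%). Without the 2 cells these numbers were 89 and 78. At least 9 of 11 [P] cells were above the highest [N] cell for 241 genes and below the lowest for 461. For at least 6 [P] cells these numbers were 1837 and 1910 of the 13676 genes, so a change carried by 6 to 8 cells was common.

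Interferon effectors led the genes that were higher in [P]. IFI6, an interferon-induced protein of mitochondria and the endoplasmic reticulum, had 32.5 CPM in its lowest [P] cell, 100.7 CPM at the median and 887 CPM in its highest, against 5.85, 11.6 and 15.1 CPM in [N]. ISG15, a ubiquitin-like modifier that is attached to other proteins, had 399, 1216 and 12540 CPM in [P], against 85.9, 157 and 234 CPM in [N]. For ISG20, an antiviral exonuclease, the same 3 values were 10.8, 17.7 and 149 CPM in [P] and 1.73, 4.22 and 5.51 CPM in [N]. The stages did not overlap for any of these 3 genes, so all 11 [P] cells carried the change. Their differences were 3.51, 3.35 and 2.74 on the log2 scale, and 3.22, 2.97 and 2.58 without 1206P1 and 1206P3. For IFI6 and ISG15 the 4 highest [P] cells were those of prefix 1206, which held no [N] cell. The other [P] cells reached at most 107.5 CPM for IFI6 and 1622 CPM for ISG15. OAS3, which makes the 2-5A signal that activates RNase L, was above the highest [N] cell in 10 of 11 [P] cells, the exception being 1206P3 with 14.3 CPM against at most 24.8 CPM in [N].

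**Figure D1:**
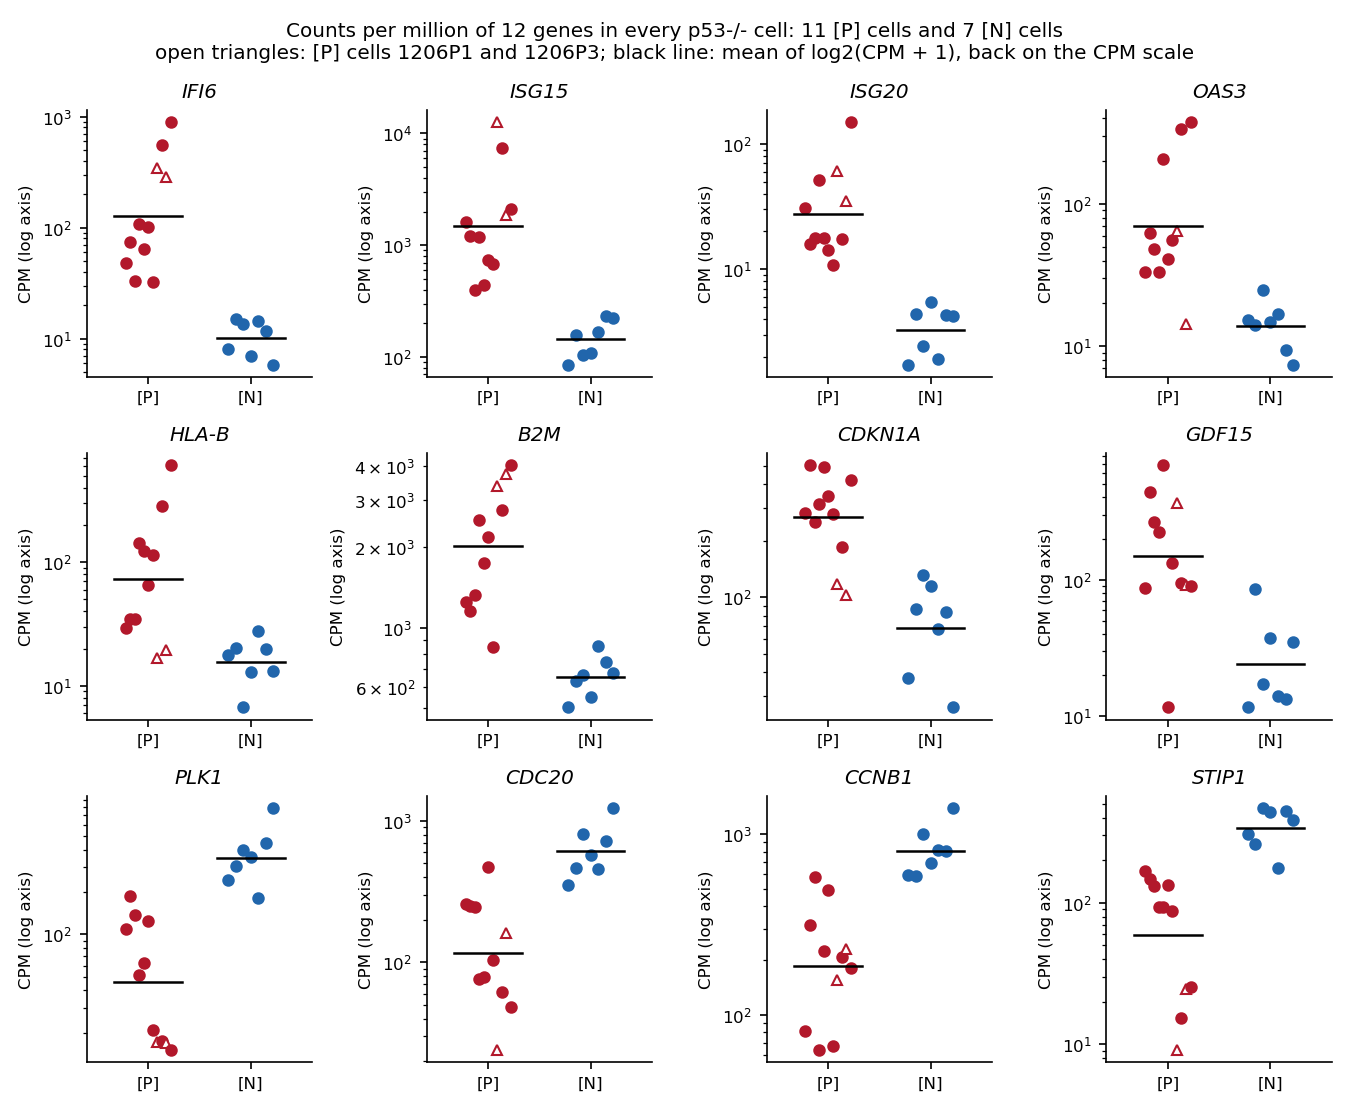
CPM (log axis) of 12 genes in each p53-/- cell, with [P] on the left and [N] on the right of each panel; the black line is the mean of log2(CPM + 1) set back on the CPM scale, and open triangles mark the [P] cells 1206P1 and 1206P3. IFI6, ISG15 and ISG20 show 11 of 11 [P] cells above all 7 [N] cells, and CCNB1 and STIP1 show 11 of 11 below.

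Over the whole list of interferon effectors, 37 of 48 genes were measured, 21 were higher past the fold and 2 were lower. Their median difference was 1.18, against -0.11 for all genes. The counts were 21 and 1 without 1206P1 and 1206P3, with a median of 1.27, and the median within prefix 1115 was 0.96. Without the [P] cells of prefix 1206 the effector median was 0.84, against 0.203 for all genes. The 2 lower members, both named after their values were seen, were LY6E and DDX60L. LY6E, a membrane protein, was below the lowest [N] cell in 9 [P] cells with a difference of -1.23, although within prefix 1115 its difference was 0.44. Genes also differed in how many cells carried them. IFI44 and DDX60, an RNA helicase, were above the highest [N] cell in 9 [P] cells each. IFIT2, which binds foreign RNA and was at 0 in some cells of both stages, was above in only 6 cells, with 0, 3.69 and 213 CPM (lowest, median, highest) in [P] against 0, 0 and 1.27 CPM in [N]. OAS1 was likewise above in 6 cells, and 1206P3 (71.8 CPM) and 1206P4 (30.9 CPM) held most of its signal.

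**Figure D2:**
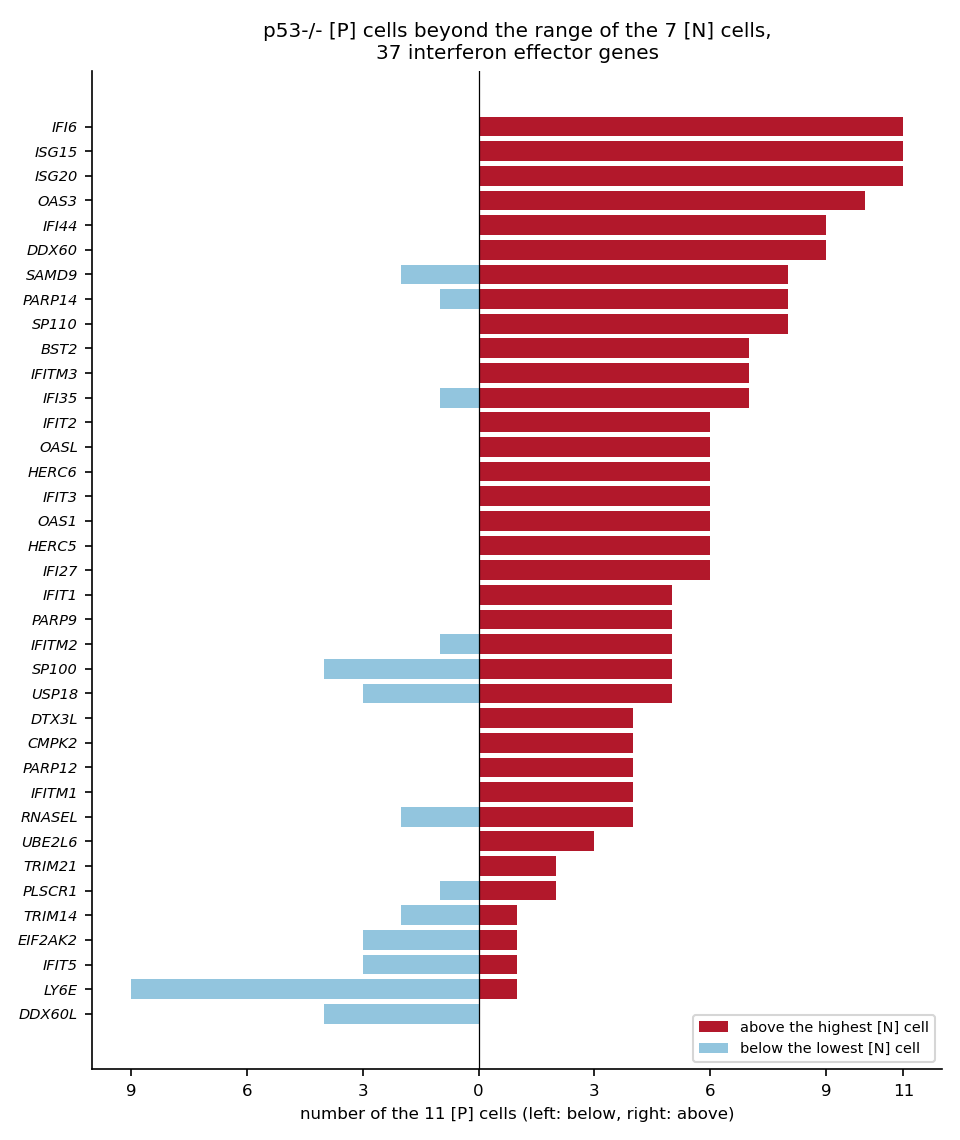
For each of the 37 measured interferon effector genes, the number of the 11 p53-/- [P] cells above the highest [N] cell (right) and below the lowest [N] cell (left). The bars run from 11 cells for IFI6, ISG15 and ISG20 to 0 above for DDX60L, and LY6E has the longest bar on the left, with 9 cells.

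Promoters of IFI6, ISG15, ISG20, OAS3 and of the MHC class I gene B2M, which were higher in at least 10 of 11 [P] cells, are printed to show the element where it was found. These 5 were picked by hand with their values known, each holds a match, and they do not stand for their lists, whose shares of matches follow them. The 180 bases before the RefSeq start (GRCh38.p14) are given 5′ to 3′ on the gene's strand, and capitals mark 2 copies of GAAA with any 2 bases between them, the core of the interferon-stimulated response element, searched on both strands (TTTC on the other), with overlapping matches allowed.
IFI6 (chr1:27672193-27672372, minus strand): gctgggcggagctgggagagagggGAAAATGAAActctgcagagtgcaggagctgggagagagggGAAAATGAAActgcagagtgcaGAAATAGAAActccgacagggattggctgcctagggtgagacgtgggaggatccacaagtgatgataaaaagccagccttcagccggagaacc
ISG15 (chr1:1013317-1013496, plus strand): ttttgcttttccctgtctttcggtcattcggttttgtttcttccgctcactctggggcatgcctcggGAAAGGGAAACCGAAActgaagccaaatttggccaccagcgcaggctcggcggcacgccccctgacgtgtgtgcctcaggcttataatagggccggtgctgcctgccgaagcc
ISG20 (chr15:88638836-88639015, plus strand): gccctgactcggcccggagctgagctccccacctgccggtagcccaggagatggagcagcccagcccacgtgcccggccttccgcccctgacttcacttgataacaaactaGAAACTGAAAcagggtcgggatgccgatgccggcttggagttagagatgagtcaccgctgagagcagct
OAS3 (chr12:112938294-112938473, plus strand): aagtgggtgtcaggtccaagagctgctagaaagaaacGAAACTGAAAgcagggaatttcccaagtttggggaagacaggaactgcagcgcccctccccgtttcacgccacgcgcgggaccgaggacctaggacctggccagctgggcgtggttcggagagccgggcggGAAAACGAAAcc
B2M (chr15:44711337-44711516, plus strand): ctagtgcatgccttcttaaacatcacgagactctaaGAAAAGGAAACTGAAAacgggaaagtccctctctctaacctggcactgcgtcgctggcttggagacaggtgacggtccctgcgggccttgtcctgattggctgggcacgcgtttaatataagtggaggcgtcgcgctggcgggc
IFI6 held 3 matches, ISG15, OAS3 and B2M held 2 each, and ISG20 held 1. Over the 250 bases before the start, 21 of the 31 measured effectors with a window (67.7%) held a match, against 3.17% of the 9979 tested genes with a window and 3.71% of all 27305 genes in the RefSeq table. By outcome, the match was in 14 of 19 effectors that were higher past the fold, in 6 of 11 that were not past the fold, and in the 1 lower effector with a window. In the MHC class I list 6 of 10 genes with a window held a match. By outcome, these were 1 of 3 genes higher past the fold, which was B2M, and 5 of 7 not past the fold.

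Transcripts of interferon genes themselves were found in few cells. IFNB1, interferon beta, had counts in 4 of 11 [P] cells: 5.97 CPM in 1115P9, 5.76 CPM in 1206P4, 1.21 CPM in 1115P5, and a single count in 1118P2. IFNL1, a type III interferon, was read in 1115P9 at 34.7 CPM and in 1206P4 at 2.1 CPM, and IFNL2 and IFNL3 were read in 1115P9 alone, at 19.9 and 18.4 CPM. IFNL2 and IFNL3 are near-identical, so reads could be split between them. IFNA1 was read in 1115P9 and 1118P2, with 47 and 24 counts, and in no [N] cell. None of these 5 genes had a count in any [N] cell, where 0 counts over the 7 cells allow a level of up to 0.0133 CPM (3 counts of 225621853, counting error only, since amplified reads without molecular identifiers are not independent molecules). The summed level of IFNB1 in [P] was 1.61 CPM (exact Poisson 95% interval 1.49 to 1.73), at least 121-fold higher than that limit. Without 1206P4, which held 373 of its 714 counts, it was 0.898 CPM and at least 67.5-fold higher. The other 7 [P] cells, among them 1206P2 and 1115P4 with effector levels above every [N] cell, had no count of IFNB1, IFNL1, IFNL2 or IFNL3. IFNE, an interferon of epithelia, had counts in 5 [P] cells and in 1 [N] cell, with the highest level, 12.6 CPM, in 1206P2 and a further 7.54 CPM in 1118P2.

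Among the RNA and DNA sensors, 14 of 22 were measured, with 4 higher past the fold, 1 lower and a median of 0.12. Without 1206P1 and 1206P3, 5 sensors were higher and none lower, with a median of 0.75. IFIH1, which encodes MDA5, differed by 2.14 and was above the highest [N] cell in 5 [P] cells. DDX58, which encodes RIG-I, differed by 1.29, with 571 CPM in 1206P4 and 220 CPM in 1118P2 against at most 46.4 CPM in [N]; 4 [P] cells were above, and without 1206P4 the difference was 0.89, under the fold. DHX58, the regulator LGP2, was read in 8 of 11 [P] cells and in no [N] cell, at least 235-fold higher by summed counts than the level that 0 counts allow. Without 1206P3, which held 814 of its 1389 counts, it was at least 109-fold higher. TMEM173, the gene of STING, was higher by 1.13 (0.85 without the [N] cell 1115N11, 0.87 without 1206P4 and 0.96 without 1118P5), while TBK1, the kinase downstream of it, was lower by a difference of -1.54 (-0.82 without the 2 cells). The list of interferon ligands, receptors and signalling factors did not follow the effectors: of 16 measured genes none was higher past the fold and 1 was lower. That member was SOCS1, an inhibitor of cytokine receptors, at -1.05, which was under the fold when any of 6 single cells was left out, for example -0.89 without 1115P4. JAK1, a kinase of the interferon receptors, differed by -0.39. Without 1206P1 and 1206P3, 4 signalling genes were higher past the fold, among them TYK2, a kinase of the interferon receptor, at 1.36.

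Transcripts of some antigen presentation genes were higher in most [P] cells. B2M, the light chain of MHC class I, had 845, 2179 and 4034 CPM (lowest, median, highest) in [P], against 503, 664 and 854 CPM in [N], and 10 of 11 [P] cells lay above all [N] cells. HLA-B, a heavy chain, was above in 9 [P] cells with a difference of 2.15. For HLA-C 9 [P] cells were above, and its difference, 0.95, did not reach the fold. HLA-B lay within the [N] range in 1206P1 and 1206P3 (16.9 and 19.5 CPM) and was highest in 1206P4, at 611 CPM. Of 12 genes measured in the list, 4 were higher past the fold and none lower, with a median of 0.63, and 5 were higher without the 2 cells, with a median of 0.88. HLA genes are alike, and the table also holds numbered copies of some of them, so their reads could be split.

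The effector level varied widely between [P] cells. Taken as the mean log2(CPM + 1) of the 37 genes, it lay between 3.0 and 6.44 in [P] and between 2.90 and 3.53 in [N], and 10 of 11 [P] cells were above the highest [N] cell. The margin was small in 1118P5, at 3.55. The highest [P] cell was 1206P4, and the only one within the [N] range was 1206P3, which nevertheless carried IFI6, ISG15 and ISG20. Leaving out any single cell in turn gave a list median between 0.92, without 1206P4, and 1.29, without 1206P3.

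**Figure D3:**
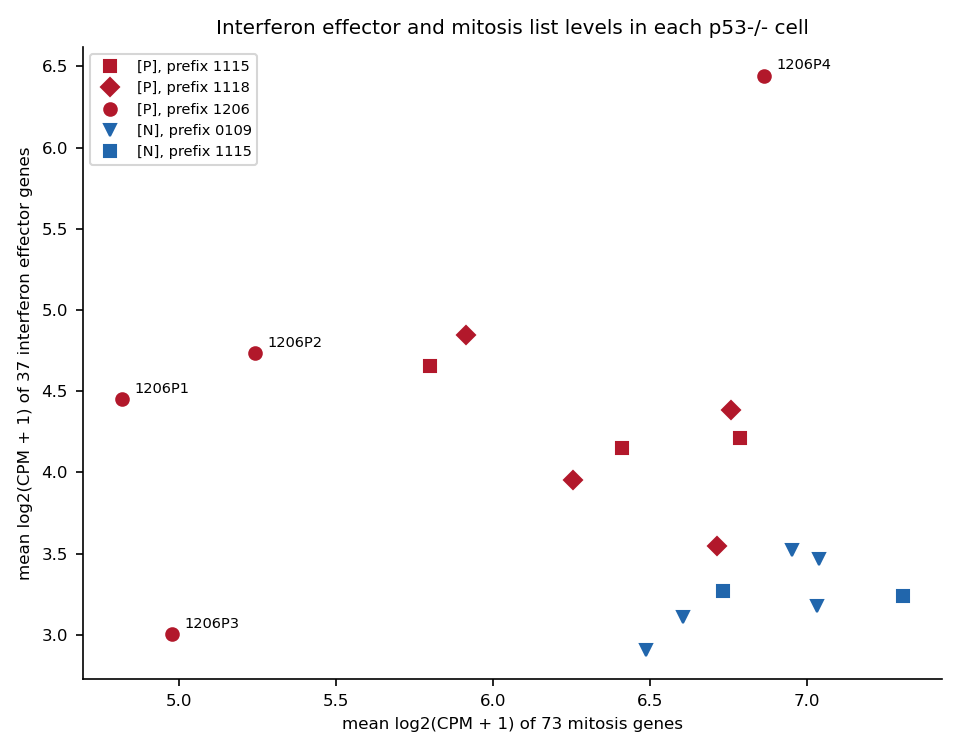
Mean log2(CPM + 1) of the 73 mitosis genes (horizontal) and of the 37 interferon effector genes (vertical) in each p53-/- cell, with red for [P], blue for [N] and the marker shape for the prefix of the cell's title. The 7 [N] cells lie at the lower right, 1206P4 combines the highest interferon level (6.44) with a mitosis level of 6.86, and 1206P1, 1206P2 and 1206P3 have the lowest mitosis levels.

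Mitotic genes were lower in [P], but not in all cells and not to zero. PLK1, the kinase that drives entry into and passage through mitosis, had 15, 51.8 and 187 CPM (lowest, median, highest) in [P], against 180, 354 and 789 CPM in [N]. CDC20, the activator of the anaphase-promoting complex, had 23.9, 104.4 and 474 CPM in [P], against 352, 576 and 1230 CPM in [N]. CCNB1, cyclin B1, had 63.5, 208 and 580 CPM in [P], against 587, 807 and 1393 CPM in [N]. All 11 [P] cells were below every [N] cell for CCNB1, the nearest being 1115P9 (580 CPM) and 1118P5 (489 CPM), and 10 of 11 were below for PLK1 and CDC20. Their differences were -2.90 for PLK1, -2.36 for CDC20 and -2.10 for CCNB1, and -2.60, -2.16 and -2.11 without 1206P1 and 1206P3. KIF20A, BUB1 and PBK, a kinesin of the midzone, a spindle checkpoint kinase and a mitotic kinase, differed by -2.27, -2.10 and -1.75. All 73 mitosis genes of the list were measured. None was higher past the fold and 29 were lower, with a median of -0.88. Without the 2 cells 19 were lower and the median was -0.51, and within prefix 1115 the median was -0.61. By the mean level of the list 7 of 11 [P] cells were below the lowest [N] cell, 5 of 9 without the 2, so several [P] cells had a mitosis level within the [N] range.

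DNA replication genes were also lower. Of 56 measured genes 22 were lower past the fold and none higher, with a median of -0.74, but only 4 were lower without 1206P1 and 1206P3, with a median of -0.45, against -0.11 and 0.17 for all genes. By the mean level of the list 6 of 11 [P] cells were below the lowest [N] cell, and 4 of 9 without the 2. MCM7 and MCM6, subunits of the replicative helicase, differed by -1.77 and -1.56 (-0.99 and -1.05 without the 2). RFC5, of the clamp loader, was below the lowest [N] cell in 10 [P] cells with a difference of -1.48. In the list of cyclins and E2F factors 4 of 18 measured genes were lower and none higher, and without the 2 cells only 1 was lower. SKP2, the F-box protein that targets p27, was lower in 9 [P] cells (-2.25), yet reached 96.7 CPM in 1206P4 against at most 113.5 CPM in [N]. CCNE2 and CCNA2, cyclins E2 and A2, differed by -1.77 and -1.38, and by -0.98 and -0.85 without the 2 cells, so both were past the fold only with 1206P1 and 1206P3.

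The upstream sequences of PLK1, CDC20 and CCNB1 are shown because many cell-cycle genes carry 1 or both of 2 short elements. In this window PLK1 and CDC20 held both and CCNB1 held CCAAT but not the other. Capitals mark the cell cycle homology region, or CHR, spelled TTTGAA, and the CCAAT box, each searched on both strands, again in the 180 bases before the start in GRCh38.p14. No match of one overlapped a match of the other in the sequences shown.
PLK1 (chr16:23678709-23678888, plus strand): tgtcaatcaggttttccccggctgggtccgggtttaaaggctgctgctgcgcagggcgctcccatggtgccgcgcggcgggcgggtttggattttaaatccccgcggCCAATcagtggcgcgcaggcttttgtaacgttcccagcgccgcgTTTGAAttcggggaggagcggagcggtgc
CDC20 (chr1:43358801-43358980, plus strand): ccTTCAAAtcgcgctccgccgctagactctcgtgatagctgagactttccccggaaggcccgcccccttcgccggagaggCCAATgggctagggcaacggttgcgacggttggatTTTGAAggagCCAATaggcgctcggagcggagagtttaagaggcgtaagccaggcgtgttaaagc
CCNB1 (chr5:69166970-69167149, plus strand): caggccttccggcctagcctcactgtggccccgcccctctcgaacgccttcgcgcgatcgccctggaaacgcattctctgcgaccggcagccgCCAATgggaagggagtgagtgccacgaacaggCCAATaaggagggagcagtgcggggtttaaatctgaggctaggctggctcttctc
In the 250 bases before the start, TTTGAA was found for 27 of 63 mitosis genes with a window (42.9%), against 11.7% of tested genes with a window, and CCAAT for 46 (73%), against 41.7%. Among the mitosis genes that were lower past the fold, 22 of 24 held CCAAT and 12 of 24 held TTTGAA, and among those that were not, 24 of 39 held CCAAT and 15 of 39 held TTTGAA.

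The CDK inhibitor CDKN1A was higher in [P]. It had 102.9, 280 and 504 CPM (lowest, median, highest) in [P], against 26, 83.8 and 131 CPM in [N], with a difference of 1.95. Of the [P] cells 9 lay above all [N] cells, and 1206P1 (118 CPM) and 1206P3 (102.9 CPM) lay within the [N] range. In the 6 [P] and 6 [N] cells labelled p53+/+ the mean level was 2315 CPM in [P] and 112.4 CPM in [N], a difference of 4.59 on the log2 scale. CDKN1C and CDKN2D, the inhibitors p57 and p19, were higher by 1.46 and 1.08 (CDKN2D 0.89 without the 2 cells), and CDKN1C stayed under 20 CPM in all cells. Of 8 measured CDK inhibitors 3 were higher past the fold and 1 was lower, with a median of 0.38. Without the 2 cells 2 were higher and none lower, with a median of 0.65. MDM2, a ubiquitin ligase, differed by 0.03 with all cells and by 1.01 without 1206P1 and 1206P3, in which it had 2 and 0.202 CPM.

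Of 32 measured p53 target genes 5 were higher past the fold and 1 was lower, with a median of 0.15 (0.46 without the 2 cells), against -0.11 (0.17) for all genes. Without the 2 cells 9 were higher and 1 was lower. The members named next were called with all cells. GDF15, a secreted stress cytokine, had 11.6, 132 and 689 CPM in [P], against 11.6, 17.2 and 85 CPM in [N], and 10 of 11 [P] cells were above all [N] cells. The exception was 1118P5, with the lowest value. TP53INP1, GADD45A and TP53I11 were, beside GDF15 and CDKN1A, the higher members, at 1.75, 1.22 and 1.15. TP53I11 was above the [N] range in 10 [P] cells, though its difference was 0.99 without the [N] cell 1115N10. KITLG, the ligand of the receptor KIT, was below the lowest [N] cell in 10 [P] cells, with a difference of -1.99. Among the apoptosis regulators 3 of 21 measured genes were higher and 2 lower (4 and 2 without the 2 cells). Beside them, 7.53% of all genes were higher and 13.3% lower (13.9% and 5.6% without the 2 cells), so these counts were few and not far from those shares. The BH3-only genes HRK and PMAIP1 (NOXA) were above in 8 [P] cells each, by 1.63 and 1.49. BAK1, the mitochondrial pore former, differed by -1.76 and was among the lower genes.

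Transcripts of several secreted and surface proteins were higher in [P]. In the list of secreted senescence factors 8 of 24 measured genes were higher past the fold and none lower, with a median of 0.53, and 11 were higher without 1206P1 and 1206P3, with a median of 0.92. TIMP2, an inhibitor of metalloproteinases, had 18.8, 96.9 and 222 CPM in [P], against 11.4, 17.3 and 57.6 CPM in [N], with 8 [P] cells above. FN1, fibronectin, and the chemokine CXCL8 differed by 1.75 and 1.96, and CXCL8 was above the [N] range in 3 [P] cells only. CSF2, the cytokine GM-CSF, was read in 7 [P] cells and in no [N] cell, at least 274-fold higher by summed counts than the level 0 counts allow. Without 1118P5, which held 1005 of its 1620 counts, it was at least 122-fold higher. CCL26, an eotaxin, had 3.95, 39.3 and 160 CPM in [P], against 0.348, 2.71 and 4.9 CPM in [N], with 9 [P] cells above. S100A6, a calcium-binding protein, was above in all 11 [P] cells, at 1660, 3235 and 6840 CPM in [P] against 583, 815 and 1404 CPM in [N]. FXYD3, a regulator of the sodium pump, was also above in all 11, with a difference of 2.74. The complement inhibitor CD59, named after its values were seen, had 483, 875 and 1550 CPM in [P], against 276, 320 and 415 CPM in [N], with the stages again apart.

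Some adhesion and keratin genes differed between the stages. Of 29 measured adhesion genes 6 were higher past the fold and none lower, with a median of 0.04. Without the 2 cells 8 were higher and none lower, with a median of 0.71. Of all genes 7.53% were higher and 13.3% lower, and 13.9% and 5.6% without the 2 cells. ITGA2, the collagen-binding integrin subunit, and COL17A1, a hemidesmosome collagen, differed by 2.13 and 2.11, and LAMB3 and LAMA3, chains of laminin-332, by 1.90 and 1.75. ITGA2 was above the [N] range in 7 [P] cells and LAMA3 in 9. The desmosomal cadherin DSC2 was above in 9 (1.54). In the keratin list 5 of 17 measured genes were higher and 2 lower (7 and 2 without the 2 cells). The keratin median was 0.60, and 0.86 without the 2 cells. KRT8 and KRT18, the keratin pair of simple epithelia, differed by -2.04 and -1.09, but within prefix 1115 by only -0.45 and -0.21, and KRT18 by -0.87 without 1206P2. KRT15, of stratified epithelia, was higher by 1.25, and KRTAP3-1, a keratin-associated protein of hair, by 2.85 with a median of 3.58 CPM and a highest value of 1303 CPM in [P]. KRT19 differed by 0.13.

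In the lysosome list 5 of 43 measured genes were higher and 2 lower, with a median of -0.08, near that of all genes (7 and 1 without the 2 cells, with a median of 0.25). LAMP1, a main glycoprotein of the lysosome membrane, stood out with 16.1, 61.3 and 255 CPM in [P], against 3.04, 10.2 and 25 CPM in [N], and 9 [P] cells above. GM2A and NPC2, lipid carriers of the lysosome, were above in 9 [P] cells each (1.6 and 1.44). CST3, cystatin C, an inhibitor of cathepsins, had 67.4, 260 and 489 CPM in [P], against 95.6, 113.6 and 152 CPM in [N], and was above in 10 cells and below in 1206P2. PPT1, a lysosomal thioesterase, was lower (-1.17, and -0.95 without the 2).

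The list of lamina and HMGB genes was the only one of the 30 lists in the plot of list medians in which all 11 [P] cells had a mean level below the lowest [N] cell. The levels, as mean log2(CPM + 1) of 14 genes, lay between 4.31 and 6.53 in [P] and between 6.63 and 7.12 in [N]. Of the 14 genes 7 were lower past the fold and none higher, with a median of -0.97. Without 1206P1 and 1206P3 all 9 [P] cells were still below, but 3 genes were past the fold, with a median of -0.72. HMGB2, a chromatin protein, had 64.5, 414 and 1370 CPM in [P], against 606, 866 and 1431 CPM in [N], and was below the lowest [N] cell in 9 [P] cells. LMNB1, lamin B1, was lower by a difference of -1.54 at a low level (median of 4.16 CPM in [P] and 15.9 CPM in [N]). LMNA, LBR and EMD, coding for lamin A/C, the lamin B receptor and emerin, differed by -1.20, -1.20 and -1.21. HMGA1 differed by -1.18 with all cells and by 0.62 within prefix 1115. Several of these differences were under the fold without 1 cell: EMD (-0.96), LBR (-0.86) and HMGA1 (-0.94) without 1206P3, LMNA (-0.96) without 1206P2, and HMGB2 (-0.98) without 1118P2. EMD was also under it without 1206P1 (-0.97), and HMGA1 without 1206P4 (-0.98).

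The lower genes with the largest differences by the naming rule belonged to varied processes. PPP5C, a phosphatase that works with HSP90, had 0, 9.15 and 43.5 CPM in [P], against 38.8, 78.5 and 102.9 CPM in [N] (-3.15), and STIP1, the adaptor between HSP70 and HSP90, had 9.05, 93.6 and 169 CPM in [P], against 177, 386 and 468 CPM in [N] (-2.49). STIP1, the arginine methyltransferase PRMT1 (-2.44), the import channel TOMM40 (-2.26) and the mitochondrial calcium channel MCU (-2.24) were below the lowest [N] cell in all 11 [P] cells. KAT5, a histone acetyltransferase of the damage response, was below in 9 (-2.71), and SMARCB1, a core subunit of SWI/SNF, and PRKACB, a catalytic subunit of protein kinase A, were below in 10 each (-2.50 and -2.68). PPP5C, KAT5 and PRKACB were under 1 CPM in 1206P1 and 1206P3, and without both cells the differences were -2.53 for PPP5C, -2.06 for STIP1, -2.19 for PRMT1 and -2.05 for SMARCB1.

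In the list of the unfolded protein and integrated stress responses 2 of 32 measured genes were higher and 5 lower, with a median of -0.46. Without the 2 cells 2 were higher and 2 lower, with a median of -0.03. PDIA4 and HSPA5, chaperones of the endoplasmic reticulum, were below the [N] range in 10 and 9 [P] cells, by -1.41 and -1.29. ASNS, asparagine synthetase, differed by -1.63. Of 30 ESCRT genes, whose products cut membranes from the inside, 6 were lower and 1 higher, with a median of -0.54. Without the 2 cells 2 ESCRT genes were lower and 1 higher, with a median of -0.13. Over all genes 13.3% were lower and 7.53% higher, and 5.6% and 13.9% without the 2 cells. The numbers of lower genes in the stress list, and of lower ESCRT genes without the 2 cells, were near those shares. VPS37A was below in all 11 [P] cells at a difference of -1.75 (-0.93 without the 2), CHMP7 in 9 and VTA1 in 10, while CHMP4B differed by 1.01, was above in 5, and was under the fold when any of 9 single cells was left out, down to 0.73 without the [N] cell 1115N10. For DNA repair, 6 of 28 recombination and Fanconi genes and 3 of 18 end-joining genes were lower and none was higher, beside 13.3% of all genes that were lower. Without the 2 cells none of either list was lower, and 1 of each was higher. XRCC6, the Ku70 subunit that binds broken ends, was below in 10 [P] cells, with 126, 565 and 1055 CPM in [P] against 983, 1304 and 1606 CPM in [N]. In the cytokinesis list 5 of 18 measured genes were lower and 1 higher, and without the 2 cells none was lower.

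Most of the other lists lay closer to the median of all genes or changed with the cells used. Their counts stand beside 7.53% of all genes higher and 13.3% lower, and 13.9% and 5.6% without the 2 cells. Of 80 measured cytosolic ribosome genes 3 were higher past the fold and none lower, with a median of 0.52, and RPL36A was the highest at 1.34. Most of them differed by little but in 1 direction, 68 of 80 being positive. Without 1206P1 and 1206P3 the ribosome median was 0.36 with 1 gene higher, against 0.17 for all genes. Within prefix 1115 it was 0.74. Glycolysis and hypoxia had 6 lower and 1 higher of 31, with ENO1 at -1.41 and NDRG1, a hypoxia and stress response gene, at 2.09 and above the [N] range in 10 [P] cells. NRF2 targets had 5 lower and none higher of 21, sterol and fatty acid synthesis 3 lower and none higher of 33, and YAP targets 3 lower and none higher of 16. The medians of these 3 lists were -0.52, -0.33 and -0.02, and within prefix 1115 they were 0.02, 0.69 and 1.47. Without 1206P1 and 1206P3 4 YAP targets were higher and 2 lower, with a median of 0.56, while 1 NRF2 target was higher and 2 lower, and 1 sterol gene was higher and 1 lower. Glycolysis then had 4 lower and 2 higher. Immediate early genes went both ways, 6 higher and 4 lower of 23: DUSP5, a phosphatase of ERK, and JUND were above in 9 [P] cells each (2.46 and 2.08), and EGR1 was lower (-2.34). Of 19 clustered histone genes 5 were higher and 1 lower, of 6 metallothioneins 1 was higher, of 12 crypt base genes 1 was higher and 1 lower (CDCA7, -2.32), and of 17 regenerative and fetal-like genes 4 were higher and 2 lower. Without the 2 cells 10 immediate early genes were higher and 4 lower, 5 crypt base genes higher and 1 lower, 3 histone genes higher and none lower, and 3 regenerative genes higher and 1 lower.

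**Figure D4:**
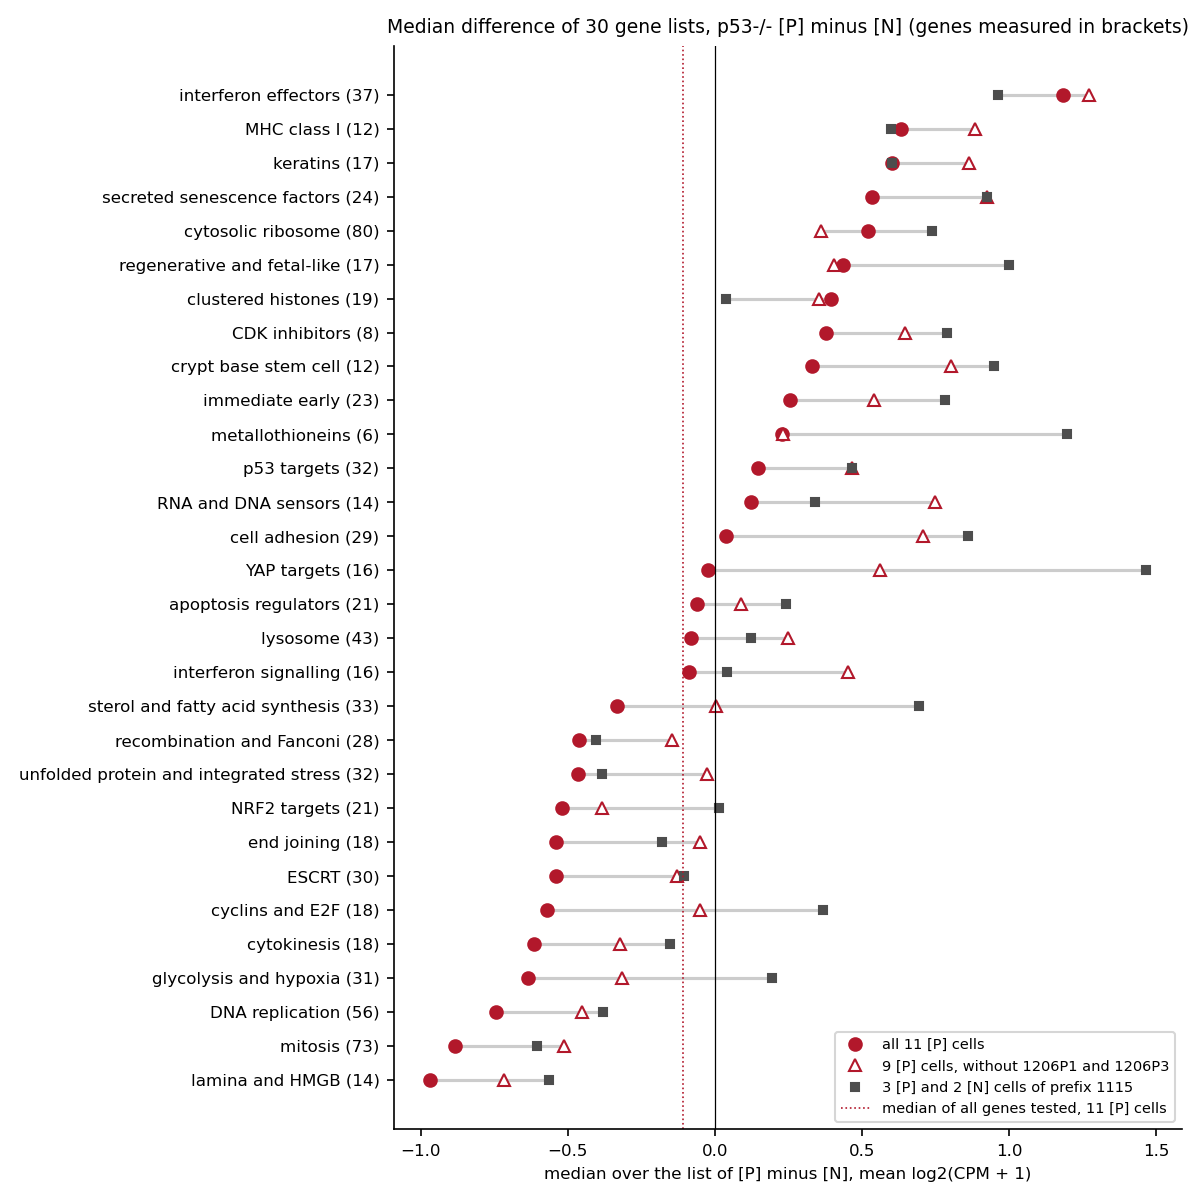
Median over each of 30 gene lists of the p53-/- [P] minus [N] difference in mean log2(CPM + 1), with the number of measured genes in brackets: circles for all 11 [P] cells, triangles for the 9 without 1206P1 and 1206P3, squares for the 3 [P] and 2 [N] cells of prefix 1115, and a dotted line for the median of all genes. Interferon effectors lie farthest to the right for all 11 and for the 9 [P] cells (1.18 and 1.27). Within prefix 1115, YAP targets (1.47), metallothioneins and the regenerative and fetal-like list lie beyond interferon effectors (0.96). Mitosis (-0.88, -0.51 and -0.61) and lamina and HMGB genes stay left of 0 with each choice of cells.

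Set beside the 6 [P] and 6 [N] cells of the p53+/+ line, the same genes gave these values; whether the lines differed was not tested. All 6 p53+/+ [P] cells had the prefix 1115, against 3 of 11 in p53-/-, so line and prefix cannot be fully told apart. Of the 6 p53+/+ [N] cells, 5 had prefix 0109 and 1 had prefix 1115, so in that line stage and prefix largely coincided. The p53-/- medians within prefix 1115 are therefore not matched by prefix to the p53+/+ values. Within prefix 1115 the p53-/- medians were 0.96 for interferon effectors, -0.61 for mitosis and 0.47 for p53 targets, and without 1206P1 and 1206P3 they were 1.27, -0.51 and 0.46. Mitosis genes had a median of -0.88 with 29 of 73 lower in p53-/-, and of -2.58 with 66 of 73 lower in p53+/+. PLK1 differed by -2.90 in p53-/- and by -4.01 in p53+/+, and CCNB1 by -2.10 and -3.20. Interferon effectors had a median of 1.18 with 21 of 37 higher in p53-/-, and of 0.69 with 13 higher in p53+/+. ISG15 differed by 3.35 in p53-/- (2.01 within prefix 1115) and by 0.40 in p53+/+. For p53 targets the medians were 0.15 in p53-/- and 1.85 in p53+/+, with 5 and 27 of 32 genes higher. STIP1 and PRMT1 differed by -2.49 and -2.44 in p53-/-, and by -0.45 and -0.47 in p53+/+. ISG15, STIP1 and PRMT1 were named for their large differences in p53-/-. Such a choice by itself tends to give smaller values in other cells, so no contrast between the lines is drawn from these 3 genes. The medians of all genes were -0.11 in p53-/- and 0.26 in p53+/+. Of all 13676 genes, 1030 were higher and 1823 lower in p53-/-. In p53+/+ 2334 of the same genes were higher and 737 lower, so the list counts of the lines stand on different shares.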

How the data were processed

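The authors deposited 1 table of whole-number counts per gene, not normalized, with 43386 entries and a column for each cell of the series. By the study's methods, fastp trimmed the reads and HISAT2 (2.0) placed them on GRCh38. Those methods name StringTie for expression levels and RSEM with Bowtie2 for FPKM values, but not which of them made the deposited counts, and any use of strand is not given in the sources used here, so overlapping and antisense genes cannot be told apart, and 3837 entries with a numbered ending were kept as separate genes. The labels and the study's methods name different sequencers. Columns were matched to cells by title, and 85 columns, of cells in other groups, were not used here, 17 of them left unmapped.

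From the deposited counts, CPM was computed from the total of each cell. Genes with a mean of at least 1 CPM over the 18 cells and a count in at least 5 cells were kept, and differences were taken on log2(CPM + 1), which understates the change of low genes. The members and the 36 gene lists were chosen with earlier results of these data known. Of these lists 33 had measured genes, and no name of the mitochondrial genome list matched an entry of the table. Up to 25 genes per direction were named, those with the largest difference among genes past the fold. These had at least 20 CPM on average in the higher stage and the same direction within prefix 1115. They also had at least 9 of 11 [P] cells beyond the [N] range and no cell with over 50% of the summed CPM. Up to 6 genes per list with the largest difference were named too. CDKN1A, MDM2, the targeted gene and genes of the study's own panels were added. Y-linked genes, XIST and TSIX were left out. Some named genes are not reported here. Any other gene is said to be named after its values were seen, apart from cell type markers and interferon genes, which were counted as lists. Cells of 1 stage may share a culture, so no test was run. Alternatives were other averages, pseudocounts, filters, scaling by TMM factors (edgeR 4.0.16) or DESeq2 (1.42.0) size factors, thinning every cell to 9035862 counts, and leaving out cells or prefixes. Those that omit 1206P1 with 1206P3, or 1206P4, or the cell with most counts of a gene at 0 in [N], were chosen after seeing the data. The scripts were tested on simulated data and run in Python 3.11.15.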

Additional observations from a re-analysis of the deposited data

Results flagged for a closer look

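Among the 7 [N] cells, 8 of 142 values examined had 1 cell whose gap to its nearest neighbour took up more of the group's range than Dixon's 95% limit, which chance gives in about 1 in 20 groups. On the log2(CPM + 1) scale, IFI44 was highest in 0109N9 (1.90), IFIT2 in 1115N10 (1.18) and OAS1 in 0109N7 (1.71), most other [N] cells being at 0. HLA-C was lowest in 0109N8 (3.30) and KAT5 in 0109N9 (4.44). KITLG was highest in 0109N10 (8.55), as was KRTAP3-1 (0.832), and the mean level of the immediate early list was highest in 0109N8 (5.82). The [P] group, with 11 cells, was too large for this rule.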

How the results depend on the processing

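Counts of genes depended on the average and on the cells used. The number higher past the fold, 1030 as reported, was 2208 by the ratio of mean CPM, 2062 by summed counts, 1569 by medians, 1695 and 205 with pseudocounts of 0.1 and 10, 509 with a filter at 10 CPM, 2438 within prefix 1115, 1934 without [P] prefix 1206 and 1896 omitting 1206P1 and 1206P3. The number lower, 1823 as reported, was 776 by the ratio of mean CPM, 890 by summed counts, 1211 by medians, 2871 and 662 with pseudocounts of 0.1 and 10, 3157 without [P] prefix 1118, 482 without [P] prefix 1206 and 766 omitting 1206P1 and 1206P3. Genes with every [P] cell above every [N] cell, 18 as reported, were 2560 within prefix 1115, 36, 35 and 174 without [P] prefixes 1115, 1118 and 1206, and 89 omitting 1206P1 and 1206P3. Genes with every [P] cell below, 65 as reported, were 2035 within prefix 1115, 108 with [N] of prefix 0109 only, and 216, 133 and 103 without [P] prefixes 1115, 1118 and 1206. With fewer cells fewer values have to lie apart; for the other changes the cause was not tested. Leaving out each cell in turn gave 853 to 1369 higher, 1183 (without 1206P1) to 2123 lower, 18 to 35 above (35 without 1206P3) and 66 to 127 below (127 without 1115P4). Within prefix 1115, LY6E (0.44) and HMGA1 (0.62) reversed. Of 110 genes examined 101 were past the fold, of which 86 remained so omitting 1206P1 and 1206P3, 96 with TMM factors, 94 with DESeq2 size factors and 72 within prefix 1115, where 99 kept their sign. Genes named for the largest differences had to share the direction within prefix 1115, so their sign there was fixed by the choice. Of all called genes, 996 of the 1030 higher and 1693 of the 1823 lower kept their sign within prefix 1115. Of these called genes, 692 of the higher and 711 of the lower stayed past the fold there. The median of all genes moved by 0.28 omitting the 2 cells and by 0.055 and 0.088 with the TMM and DESeq2 factors. No paired analysis was possible because no test was run and the replicate numbers only name cells in accession order, so no number pairs a [P] with an [N] cell.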
